A study of Caenorhabditis elegans with 60 samples.

Results

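Whole worms of Caenorhabditis elegans raised for 48 h in 4 g/L hexafluoropropylene oxide dimer acid (HFPO-DA) were compared with worms raised without it, gene by gene and family by family. HFPO-DA is a short-chain perfluorinated ether acid that serves in the production of fluoropolymers. The comparison took the 4 libraries of the highest concentration and the 4 control libraries at 0 g/L, 8 of the 60 libraries and 2 of the 15 groups of the study, and all 10293 tested genes of the 10298 listed. The groups came from the concentration in the sample titles, and no measured value was used to choose them. Both groups were wild-type N2 (Bristol) worms, exposed from the synchronised first larval stage in wells of S Medium with E. coli HB101 as food and with streptomycin and nystatin. Each library came from 1 well that held a pool of about 1000 worms. The wells are the replicates. The labels do not tie the wells to separate cultures of worms. The p-values therefore measure only the spread among wells, pooled over all 15 groups, and that spread may be technical. The deposited values had already been adjusted between replicate numbers, gene by gene, so it is the spread left after that step. The description covers genes and families beyond those of detoxification, collagens, sperm and yolk, which were set aside as 10 lists with 403 tested genes.

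Worms kept for this long from the first larval stage pass through moults in which the epidermis makes a new cuticle, and they build the gonad and start to make germ cells. The intestine is a tube of large cells that take up food across a brush border held up by actin and a sheet of intermediate filaments, and it is also the main organ of fat storage and of defence against swallowed compounds. Messenger RNA of whole worms mixes all these tissues. A change in a transcript can therefore come with fewer cells of a type or with less RNA per cell, and these cannot be told apart here.

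Values are the deposited normalised signal of each gene, on a linear scale and with no correction for gene length. Fold changes are log2(value + 1) at 4 g/L minus control, from 1 limma fit over all 60 libraries with Benjamini-Hochberg adjustment over all tested genes. A gene was called at an adjusted p under 0.05, and "rose", "fell", "higher" and "lower" of a gene refer to that call. At 4 g/L 1518 genes were called higher (14.7% of those tested) and 1414 lower (13.7%), 2932 in all. At an unadjusted p under 0.05 there were 4160. The median log2 fold change over all tested genes was -0.05. Called rises were larger than called falls. The median was 1.05 among genes called higher and -0.56 among genes called lower, and 846 genes (55.7% of the rises) rose by at least 1 on the log2 scale, whereas 8.42% of the falls were that large. Genes called higher also varied more between wells. Their median SD of log2 values was 0.457 at 4 g/L and 0.457 in the controls. For genes called lower it was 0.281 and 0.191. A gene that varies more must change more to be called, and the part of this in the difference of sizes was not tested. Outside the 10 lists set aside, 1370 genes rose and 1369 fell among 9890 tested.

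**Figure D1:**
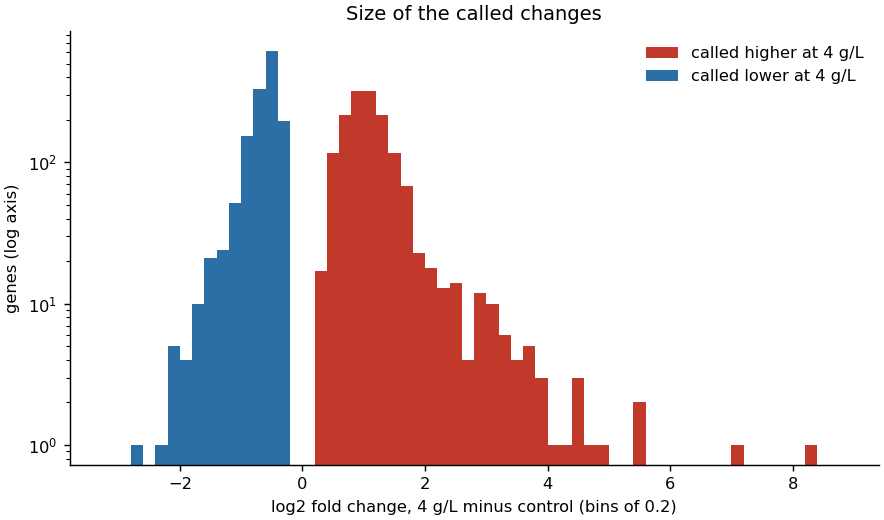
Number of genes (log axis) by log2 fold change, 4 g/L minus control, in bins of 0.2, for the 1518 genes called higher and the 1414 called lower. The called rises spread out to beyond 8, while nearly all called falls lie between 0 and -2: 8 genes fell by at least 2 and 100 rose by at least 2, of which 57 were in the lists set aside.

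The depth of the libraries, taken from the recovered reads, was 737039 to 1249951 at 4 g/L and 999346 to 1914706 in the controls. In 835 genes (8.11%) all 4 libraries at 4 g/L stood above all 4 controls, and in 996 (9.68%) all stood below. The libraries did not weigh equally. 4 g/L replicate 4 was the farthest from the controls in 71.0% of the genes called higher and in 56.6% of those called lower, and control replicate 1 was the control nearest to 4 g/L in 63.5% and 57.2%. Without 4 g/L replicate 4 the fit called 641 genes (6.23%) higher and 659 (6.4%) lower, and without control replicate 2 it called 924 and 893. With only the 8 libraries in the fit, which then estimates the spread from them alone, 701 genes (6.81%) were called higher and 430 (4.18%) lower. The main fit shares 1 spread per gene over 15 groups. The median SD of log2 values was 0.32 at 4 g/L, 0.27 in the controls and 0.26 over the 15 groups. Adjusted p-values of genes that vary more at 4 g/L may therefore be too small. In limma that of grl-21 was 2.73e-10 in the main fit and 0.00924 with only the 8 libraries. For ram-2 it was 1.27e-06 and 0.0149. In 3 sets of 12 consecutive sample numbers there was a library of both groups, and a set term or a difference within a set refers to these.

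Markers of the tissues moved in different directions. Beside the counts below, 14.7% of all tested genes were called higher and 13.7% lower. The summed value of 43 germ line markers was 10161.0 to 13702.6 at 4 g/L and 14573.1 to 17797.0 in the controls, with no overlap, and 16 of them fell and 0 rose (median -0.39). Summed epidermis markers (31 genes) stood at 1605.7 to 2202.1 at 4 g/L and 1526.4 to 1565.2 in the controls, with 9 called higher and 1 lower. For 57 pharynx markers, a list that holds many genes named for glutamine-rich stretches, the sums were 5348.0 to 6865.7 at 4 g/L and 5015.0 to 5255.2 in the controls, with 18 higher and 2 lower. Neuron markers (21 genes) summed to 645.5 to 815.8 at 4 g/L and 516.2 to 610.3 in the controls, and 6 were called higher and 0 lower. Of these lists, with only the 8 libraries in the fit 14 germ line markers were lower, and 4 epidermis, 14 pharynx and 1 neuron markers were higher. Without 4 g/L replicate 4 the same counts were 10, 5, 12 and 2. Over all genes 6.81% were higher and 4.18% lower with only the 8 libraries, and 6.23% and 6.4% without 4 g/L replicate 4. With only the 8 libraries the share of neuron markers called higher was below that over all genes. Markers of intestine, body wall muscle and sperm overlapped between the groups in their sums, at 20993.8 to 23368.1, 25070.4 to 30429.0 and 16989.2 to 29404.1 at 4 g/L and 18160.7 to 22807.1, 21890.0 to 25941.7 and 9203.7 to 22376.0 in the controls. The highest control sum of sperm markers was that of replicate 1 and the highest 4 g/L sum that of replicate 4. Gonad sheath and spermatheca markers (14 genes) summed to 813.7 to 1062.6 at 4 g/L and 704.9 to 766.3 in the controls. Of them 6 were called higher and 1 lower, 2 and 1 with only the 8 libraries, and 2 and 0 without 4 g/L replicate 4. The 1 called lower in the main fit was inx-14, an innexin of the germ line, so this list does not hold sheath and spermatheca genes alone. Seam, vulva and excretory markers (16 genes) overlapped, at 970.6 to 1214.9 at 4 g/L and 858.6 to 977.5 in the controls, with 3 higher and 1 lower. No marker was at 0 reads in all 8 libraries.

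An even rise among genes with a symbol (letters, a hyphen and a number) outside the lists set aside was that of apy-1 (CELE_F08C6.6, chromosome X, 7568141 to 7569722, WBcel235), which encodes an apyrase, an enzyme of the endoplasmic reticulum that splits nucleoside diphosphates. Its values were 525, 394, 438 and 531 in the 4 g/L libraries, against 58.1, 62.7, 62.0 and 52.7 in the controls. All exposed libraries stood far above all controls, which lay close together, and the log2 fold change was 2.97 ± 0.17 (SE; adjusted p = 1.58e-20 in limma). The infection response gene irg-3 (CELE_F53E10.4, chromosome V, 2592591 to 2595062) had values of 328, 285, 259.5 and 241 in the 4 g/L libraries, against 84.7, 82.1, 76.6 and 86.4 in the controls. It was likewise tight within both groups and changed by 1.73 ± 0.17 (SE; adjusted p = 9.7e-12 in limma). For hrg-7 (CELE_C15C8.3, chromosome V, 12742041 to 12744171), a secreted aspartic protease-like protein that signals haem status between the intestine and neurons, the libraries gave 325, 452, 310.3 and 383 in the 4 g/L libraries, against 46.3, 110.3, 81.1 and 111 in the controls. Control replicate 1 was the lowest of the controls, the groups did not overlap, and the change was 2.13 ± 0.24 (SE; adjusted p = 1.23e-09 in limma).

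Other leading rises were as large but much less even between wells. The transthyretin-like gene ttr-14 had 237, 586, 282 and 1281 in the 4 g/L libraries, against 147, 51.7, 56.6 and 78.3 in the controls. Replicates 4 and 2 of 4 g/L stood far above replicates 1 and 3, all were above the controls, and the log2 fold change was 2.62 ± 0.39 (SE; adjusted p = 1.7e-06 in limma). In ram-2 the values were 212, 588, 239 and 1497 in the 4 g/L libraries, against 140.4, 62.9, 90.5 and 63.8 in the controls, again highest in replicates 4 and 2 of the exposed worms, with a change of 2.43 ± 0.36 (SE; adjusted p = 1.27e-06 in limma). The hedgehog-related gene grl-21 read 29.7, 159.9, 14.4 and 253 in the 4 g/L libraries, against 5.66, 2.30, 3.93 and 2.86 in the controls. Its controls were all near the bottom of the scale, its exposed libraries differed widely, and its log2 fold change of 3.87 ± 0.42 (SE; adjusted p = 2.73e-10 in limma) depends on the pseudocount at such low control values.

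The same 2 exposed libraries led in several smaller genes. gmap-1 averaged 93.6 ± 69.7 at 4 g/L and 19.8 ± 7.92 in the controls (SD, n = 4 each), with a change of 1.93 ± 0.31 (SE; adjusted p = 9.13e-06 in limma). dbd-19 averaged 37.5 ± 16.4 at 4 g/L and 9.26 ± 4.68 in the controls (SD, n = 4 each) and changed by 1.96 ± 0.32 (SE; adjusted p = 7.69e-06 in limma). The ADAMTS-like protease gene adt-3 averaged 39.4 ± 28.7 at 4 g/L and 6.59 ± 2.69 in the controls (SD, n = 4 each) and changed by 2.20 ± 0.35 (SE; adjusted p = 7.2e-06 in limma). In all 3 genes the exposed libraries did not overlap the controls and the SD at 4 g/L was wider than in the controls. asp-12, which encodes an aspartyl protease, had 63.7, 59.02, 37.2 and 144 in the 4 g/L libraries, against 17.7, 20.3, 21.5 and 9.77 in the controls, a change of 1.95 ± 0.33 (SE; adjusted p = 1.49e-05 in limma) in which replicate 4 stood apart above the other exposed libraries.

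**Figure D2:**
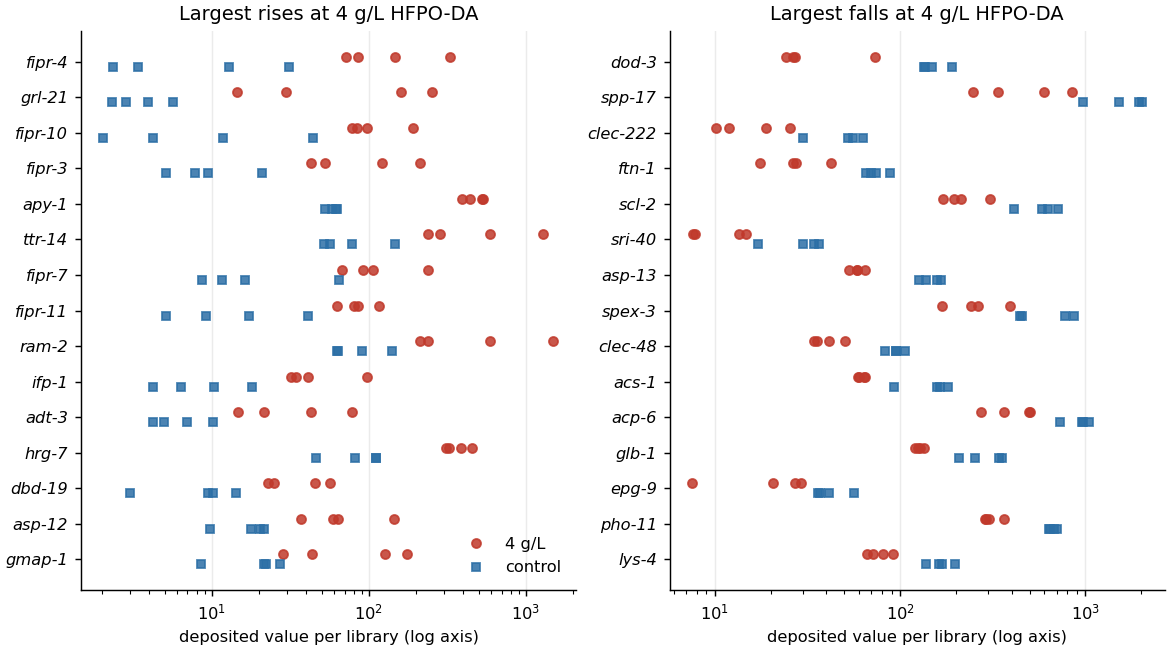
Deposited value in each library (log axis) of the 15 largest called rises and the 15 largest called falls outside the lists set aside, among genes with a symbol, a mean of at least 20 and no overlap. Circles are the 4 libraries at 4 g/L and squares the 4 controls: apy-1, hrg-7, asp-13, pho-11 and glb-1 are tight at 4 g/L, whereas fipr-4, grl-21, ttr-14 and ram-2 run over a wide range there.

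Small secreted peptides of the fungus-induced (fip, fipr) and caenacin (cnc) families, many of which are made in the epidermis or pharynx during infection or wounding, held many calls, nearly all of them in genes named fipr. Of 21 tested, 11 (52.4%) were called higher and 1 (4.76%) lower, and the median log2 fold change was 0.98. The counts were 11 and 0 with only the 8 libraries in the fit, and 9 and 0 without 4 g/L replicate 4. Among genes whose names begin with fipr 10 of 13 rose, whereas of the caenacins cnc-10 rose and cnc-3 fell. The largest rise was that of fipr-4, with 85.5, 147, 71.1 and 327 in the 4 g/L libraries, against 30.9, 2.36, 12.9 and 3.37 in the controls. Control replicates 2 and 4 were near the bottom of the scale and control replicate 1 was the highest control, and the change was 3.88 ± 0.58 (SE; adjusted p = 1.56e-06 in limma). fipr-3, on the X chromosome, averaged 107 ± 77.6 at 4 g/L and 10.8 ± 6.89 in the controls (SD, n = 4 each), a log2 fold change of 3.06 ± 0.45 (SE; adjusted p = 1.48e-06 in limma).

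In other members control replicate 1 stood apart too. fipr-10 had 96.8, 84.2, 77.6 and 192 in the 4 g/L libraries, against 44.3, 2.04, 11.7 and 4.21 in the controls, with a change of 3.44 ± 0.65 (SE; adjusted p = 0.000108 in limma). fipr-7 had 106, 91.3, 67.1 and 238 in the 4 g/L libraries, against 64.1, 8.66, 16.2 and 11.6 in the controls, with a change of 2.55 ± 0.59 (SE; adjusted p = 0.00137 in limma), and fipr-11 averaged 86.02 ± 22.1 at 4 g/L and 18.1 ± 16 in the controls (SD, n = 4 each), with a change of 2.52 ± 0.47 (SE; adjusted p = 8.78e-05 in limma). In each of these genes the exposed libraries stood above all 4 controls, and control replicate 1 came closest to them. Several fipr genes are near-identical copies, so the split of reads between neighbouring copies is uncertain. The caenacin cnc-3 went against the group, at 5.10, 21.6, 7.99 and 2.78 in the 4 g/L libraries and 7.35, 39.9, 18.5 and 30.9 in the controls. Its groups overlapped and its change was -1.38 ± 0.44 (SE; adjusted p = 0.0154 in limma). cnc-3 was not called with only the 8 libraries in the fit (limma adjusted p = 0.109), with voom (adjusted p = 0.0801) or without 4 g/L replicate 4, control replicate 2 or control replicate 4, and its adjusted p reached 0.127 over the 23 alternatives.

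Genes of intermediate filaments and of the anchors that tie epidermis and muscle to the cuticle held the largest share of rises among the lists plotted here. Of 17 tested, 12 (70.6%) were called higher and 0 lower, and the median log2 fold change was 0.78. The counts were 9 and 0 with only the 8 libraries in the fit, and 5 and 1 without 4 g/L replicate 4. Several of these filament proteins form the sheet under the brush border of the intestine, the terminal web. ifb-2, one of its main filaments, had 257, 415, 208 and 557 in the 4 g/L libraries, against 118, 93.5, 97.2 and 106 in the controls. All exposed libraries were above all controls, which lay close together, and the change was 1.68 ± 0.22 (SE; adjusted p = 1.36e-07 in limma). ifc-2 had 233, 330.4, 159 and 416 in the 4 g/L libraries, against 122.5, 84.2, 125 and 86.1 in the controls, with a change of 1.37 ± 0.23 (SE; adjusted p = 2.02e-05 in limma).

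The largest change was that of ifp-1. It read 41.2, 34.4, 32.1 and 98.0 in the 4 g/L libraries, against 18.03, 6.35, 10.3 and 4.24 in the controls, with the groups apart and replicate 4 of 4 g/L well above the rest, and changed by 2.30 ± 0.37 (SE; adjusted p = 8.08e-06 in limma). ifo-1, which organises these filaments, had 60.4, 63.8, 47.3 and 122 in the 4 g/L libraries, against 27, 30.3, 19.1 and 12.5 in the controls, also without overlap, and changed by 1.66 ± 0.23 (SE; adjusted p = 3.7e-07 in limma). act-5, the actin of the intestinal microvilli, had 2218, 2031, 1603 and 2252 in the 4 g/L libraries, against 1225, 805, 1078 and 840.0 in the controls. All of its exposed libraries stood above all controls, and its change was 1.05 ± 0.20 (SE; adjusted p = 0.000115 in limma). Setting side by side 9 genes of the terminal web and brush border, a group put together after the values were seen, 8 rose and 1 was not called. The others that rose were ifc-1 (log2 fold change 1.36 ± 0.28), ifd-1 (1.21 ± 0.34) and ifd-2 (0.77 ± 0.30). The membrane linker erm-1 was not called, at 0.14 ± 0.19 (SE, limma adjusted p = 0.623). Of the 27 intestine markers, some of which are these same genes, 14 rose and 3 fell, and their summed values overlapped between the groups; their part in the rise of the filament genes was not tested. Filaments and anchors of the epidermis rose too, with smaller changes: vab-10 at 0.82, ifb-1 at 0.79 and mua-3 at 0.78 on the log2 scale.

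Lists of transporters that bring nutrients into cells held larger shares of rises than all genes. For amino acid, peptide and neurotransmitter carriers, of 25 tested, 9 (36%) were called higher and 1 (4%) lower, and the median log2 fold change was 0.71. The counts were 5 and 0 with only the 8 libraries in the fit, and 6 and 0 without 4 g/L replicate 4. The intestinal peptide transporter gene pept-1 had 163, 152, 149.8 and 144 in the 4 g/L libraries, against 81.1, 53.98, 55.3 and 52.5 in the controls. The exposed libraries lay close together and well above the controls, of which replicate 1 was the highest, and the change was 1.33 ± 0.17 (SE; adjusted p = 6.1e-08 in limma). The amino acid transporter gene aat-6 averaged 34.99 ± 11.5 at 4 g/L and 11.01 ± 2.57 in the controls (SD, n = 4 each), a change of 1.54 ± 0.27 (SE; adjusted p = 3.62e-05 in limma) with no overlap. snf-5, of the sodium-dependent neurotransmitter and amino acid carrier family, read 76.6, 60.8, 83.6 and 165 in the 4 g/L libraries, against 102, 18.3, 51.7 and 8.70 in the controls. Its control replicate 1 was above 3 of the exposed libraries, and its change was 1.51 ± 0.44 (SE; adjusted p = 0.00862 in limma). snf-5 was not called with only the 8 libraries in the fit (limma adjusted p = 0.0927) or without 4 g/L replicate 4, control replicate 2 or control replicate 4, and its adjusted p reached 0.112 over the 23 alternatives. slc-36.1 was the 1 member that fell, by 0.62 on the log2 scale.

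Among sugar, nucleoside and organic ion carriers most calls were rises too. Of 30 tested, 9 (30%) were called higher and 1 (3.33%) lower, and the median log2 fold change was 0.42. The counts were 5 and 0 with only the 8 libraries in the fit, and 5 and 0 without 4 g/L replicate 4. The sugar transporter gene swt-7 had 71.1, 106, 49.6 and 102 in the 4 g/L libraries, against 53.2, 20.9, 27.4 and 24.5 in the controls. Control replicate 1 overlapped the lowest exposed library, replicate 3, and the change was 1.39 ± 0.25 (SE; adjusted p = 5.06e-05 in limma). oct-2, an organic cation transporter gene, averaged 38.8 ± 9.64 at 4 g/L and 16.1 ± 3.18 in the controls (SD, n = 4 each) without overlap and changed by 1.21 ± 0.26 (SE; adjusted p = 0.000578 in limma). Among nucleoside transporters ent-3 rose by 1.34 and ent-2 by 0.49, while ent-5 fell by 1.03 on the log2 scale. Of 8 aquaporins, the water and glycerol channels, 3 rose and 0 fell, and 1 rose with only the 8 libraries, with voom and without 4 g/L replicate 4. aqp-8, the channel of the excretory canal, had 151.2, 185, 76.1 and 159 in the 4 g/L libraries, against 67.1, 58.02, 48.5 and 59.6 in the controls. Replicate 3 was the lowest exposed library and still stood above all controls, and the change was 1.21 ± 0.21 (SE; adjusted p = 2.22e-05 in limma). aqp-2 changed by 0.69 ± 0.26 (SE; adjusted p = 0.0419 in limma). aqp-2 was not called with only the 8 libraries in the fit (limma adjusted p = 0.0618), with voom (adjusted p = 0.0572) or without 4 g/L replicate 2, 4 g/L replicate 3, 4 g/L replicate 4, control replicate 2, control replicate 3 or control replicate 4, and its adjusted p reached 0.211 over the 23 alternatives.

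For ion pumps and exchangers the shares in the main fit were similar and the changes smaller, but the larger share of rises was lost in 2 alternatives. Of 43 tested, 14 (32.6%) were called higher and 1 (2.33%) lower, and the median log2 fold change was 0.41. The counts were 2 and 0 with only the 8 libraries in the fit, and 1 and 1 without 4 g/L replicate 4. Over all genes 6.81% and 6.23% were called higher under these settings, so the share of rises in this list was below that over all genes in both. The sodium-calcium exchanger gene ncx-2 had 86.3, 59.3, 44.8 and 64.4 in the 4 g/L libraries, against 47.6, 28.6, 37.2 and 27.4 in the controls. Control replicate 1 overlapped the exposed libraries, and the change was 0.84 ± 0.28 (SE; adjusted p = 0.0205 in limma). ncx-2 was not called without 4 g/L replicate 1, 4 g/L replicate 4, control replicate 2 or control replicate 4, and its adjusted p reached 0.0807 over the 23 alternatives. catp-4, a P-type ATPase gene, changed by 1.33 ± 0.48 (SE; adjusted p = 0.0335 in limma), with replicate 4 at 153 and the other exposed libraries at 35.5 to 74.8. catp-4 was not called with only the 8 libraries in the fit (limma adjusted p = 0.0708), with voom (adjusted p = 0.0725) or without 4 g/L replicate 1, 4 g/L replicate 4, control replicate 2, control replicate 3 or control replicate 4, and its adjusted p reached 0.2 over the 23 alternatives. Its relative catp-3 was the 1 member that fell, at 4.32, 12.3, 2.66 and 12.6 in the 4 g/L libraries and 20.5, 11.2, 20.6 and 18.8 in the controls. Exposed replicate 4 and replicate 2 overlapped the lowest control, and the change was -1.251 ± 0.41 (SE; adjusted p = 0.0184 in limma). catp-3 was not called with only the 8 libraries in the fit (limma adjusted p = 0.0688), with voom (adjusted p = 0.136) or without 4 g/L replicate 1 or 4 g/L replicate 3, and its adjusted p reached 0.136 over the 23 alternatives. The main sodium pump, chosen for its level after the values were seen, was not called: its alpha subunit gene eat-6 averaged 492 ± 31.7 at 4 g/L and 411 ± 31.2 in the controls (SD, n = 4 each) (limma adjusted p = 0.156) and its beta subunit gene nkb-1 92.8 ± 23.4 at 4 g/L and 95.5 ± 3.60 in the controls (SD, n = 4 each) (limma adjusted p = 0.749). A p above the threshold does not show that these genes stayed the same.

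Among secreted and membrane metalloproteases the calls were rises, and 21 members were not called. Of 34 tested, 13 (38.2%) were called higher and 0 lower, and the median log2 fold change was 0.47. The counts were 4 and 0 with only the 8 libraries in the fit, and 4 and 0 without 4 g/L replicate 4, and 9 higher and 1 lower with the set term. Among them were 10 of the 14 genes named nep, neprilysin-like membrane peptidases that cut small peptides outside cells. nep-22 had 121, 120.0, 106 and 192 in the 4 g/L libraries, against 72.0, 45.5, 57.5 and 53.04 in the controls. The groups were apart, with replicate 4 the highest exposed library, and the change was 1.21 ± 0.23 (SE; adjusted p = 9.27e-05 in limma). nep-17 averaged 452 ± 78.6 at 4 g/L and 254 ± 23.4 in the controls (SD, n = 4 each) and changed by 0.82 ± 0.18 (SE; adjusted p = 0.000952 in limma). 2 further members were chosen after their values were seen. nep-8 averaged 17.9 ± 7.82 at 4 g/L and 6.38 ± 3.71 in the controls (SD, n = 4 each) and changed by 1.39 ± 0.39 (SE; adjusted p = 0.00645 in limma). nep-8 was not called with voom (adjusted p = 0.0676) or without 4 g/L replicate 4, and its adjusted p reached 0.0676 over the 22 alternatives. nep-2 averaged 37.6 ± 6.49 at 4 g/L and 22.3 ± 2.46 in the controls (SD, n = 4 each) and changed by 0.71 ± 0.19 (SE; adjusted p = 0.00474 in limma), with an adjusted p of 0.0512 with only the 8 libraries.

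The basement membrane, the sheet of laminins, type IV collagen and linkers that lies between tissues, also had calls in 1 direction. Of 24 tested, 9 (37.5%) were called higher and 0 lower, and the median log2 fold change was 0.53. The counts were 5 and 0 with only the 8 libraries in the fit, and 4 and 0 without 4 g/L replicate 4. lam-1, the laminin beta chain, had 109, 109, 113 and 179 in the 4 g/L libraries, against 87.9, 65.2, 62.5 and 52.3 in the controls. Exposed replicate 4 stood above the other 3, which were nearly equal, and control replicate 1 came closest to them; the change was 0.91 ± 0.20 (SE; adjusted p = 0.000636 in limma). lam-2, the gamma chain, had 67.8, 84.2, 79.3 and 122.7 in the 4 g/L libraries, against 63.5, 45.7, 31.6 and 43.4 in the controls, without overlap, and changed by 0.93 ± 0.19 (SE; adjusted p = 0.000379 in limma). Of the alpha chains, which were chosen after the values were seen, epi-1 averaged 218 ± 41.2 at 4 g/L and 134 ± 29.7 in the controls (SD, n = 4 each) and rose by 0.70 ± 0.18 (SE; adjusted p = 0.00349 in limma), while lam-3 was not called at 0.58 ± 0.31 (SE, limma adjusted p = 0.158).

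Other components of this sheet were called in fewer of the alternatives. fbl-1, the fibulin, averaged 35.8 ± 12.4 at 4 g/L and 18.2 ± 3.82 in the controls (SD, n = 4 each) and changed by 0.90 ± 0.26 (SE; adjusted p = 0.00982 in limma). fbl-1 was not called with only the 8 libraries in the fit (limma adjusted p = 0.0558) or without 4 g/L replicate 4 or control replicate 2, and its adjusted p reached 0.0726 over the 23 alternatives. mig-6, the papilin, averaged 264 ± 42.2 at 4 g/L and 152 ± 42.6 in the controls (SD, n = 4 each) and changed by 0.82 ± 0.27 (SE; adjusted p = 0.0178 in limma). mig-6 was not called without 4 g/L replicate 4, control replicate 2 or control replicate 4, and its adjusted p reached 0.0824 over the 23 alternatives. For type IV collagen, the alpha2 chain gene let-2 changed by 0.44 ± 0.16 (SE; adjusted p = 0.041 in limma) while the alpha1 chain gene emb-9 was not called at 0.39 ± 0.17 (SE; adjusted p = 0.0698 in limma). let-2 was not called with only the 8 libraries in the fit (limma adjusted p = 0.0751), with voom (adjusted p = 0.0655) or without 4 g/L replicate 1, 4 g/L replicate 2, 4 g/L replicate 4, control replicate 2, control replicate 3 or control replicate 4, and its adjusted p reached 0.149 over the 23 alternatives. Nidogen, nid-1, had 75.0, 71.1, 76.4 and 108 in the 4 g/L libraries, against 55.4, 90.3, 65.1 and 81.9 in the controls, with overlap, and was not called at 0.18 ± 0.15 (SE; adjusted p = 0.372 in limma). mig-6, let-2, emb-9 and nid-1 were chosen after their values were seen.

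Genes of muscle contraction held many rises. For myosins, troponins and muscle calcium channels, of 35 tested, 16 (45.7%) were called higher and 1 (2.86%) lower, and the median log2 fold change was 0.47. The counts were 10 and 0 with only the 8 libraries in the fit, and 7 and 0 without 4 g/L replicate 4. myo-5, a myosin heavy chain of the pharynx, had 102, 112, 95.7 and 231 in the 4 g/L libraries, against 57.5, 48.9, 35.3 and 52.9 in the controls. Replicate 4 was again far above the other exposed libraries, all of which stood above the controls, and the change was 1.38 ± 0.33 (SE; adjusted p = 0.00203 in limma). itr-1, the inositol trisphosphate receptor that releases stored calcium, had 103, 126, 109 and 161 in the 4 g/L libraries, against 71.3, 60.9, 46.9 and 55.7 in the controls, also without overlap, and changed by 1.07 ± 0.21 (SE; adjusted p = 0.000151 in limma). The troponin T gene tnt-4 averaged 353 ± 108 at 4 g/L and 171 ± 43.99 in the controls (SD, n = 4 each) and changed by 1.01 ± 0.24 (SE; adjusted p = 0.00163 in limma), with control replicate 1 above exposed replicate 3. unc-2, a neuronal calcium channel subunit chosen after its values were seen, averaged 16.4 ± 3.16 at 4 g/L and 6.24 ± 2.65 in the controls (SD, n = 4 each) and changed by 1.33 ± 0.31 (SE; adjusted p = 0.00127 in limma). The light chain gene mlc-5 was the 1 member that fell, by 0.46 on the log2 scale.

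In integrin adhesions and dense bodies, which anchor the contractile filaments, of 23 tested, 7 (30.4%) were called higher and 0 lower, and the median log2 fold change was 0.37. The counts were 3 and 0 with only the 8 libraries in the fit, and 4 and 1 without 4 g/L replicate 4. The LIM-domain gene lim-8 had 30.2, 62.3, 30.2 and 77.0 in the 4 g/L libraries, against 19.1, 14.97, 9.79 and 11.1 in the controls. All exposed libraries were above all controls, and replicates 2 and 4 were higher than replicates 1 and 3; the change was 1.71 ± 0.29 (SE; adjusted p = 1.91e-05 in limma). The alpha integrin gene pat-2 averaged 117 ± 26.3 at 4 g/L and 78.8 ± 16.5 in the controls (SD, n = 4 each) with overlap and changed by 0.56 ± 0.18 (SE; adjusted p = 0.0144 in limma). pat-2 was not called with only the 8 libraries in the fit (limma adjusted p = 0.0811) or without 4 g/L replicate 4 or control replicate 3, and its adjusted p reached 0.0923 over the 23 alternatives. Of the 25 body wall muscle markers, which share members with these lists, 9 rose and 0 fell, and their sums overlapped between the groups; their part in these counts was not tested.

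**Figure D3:**
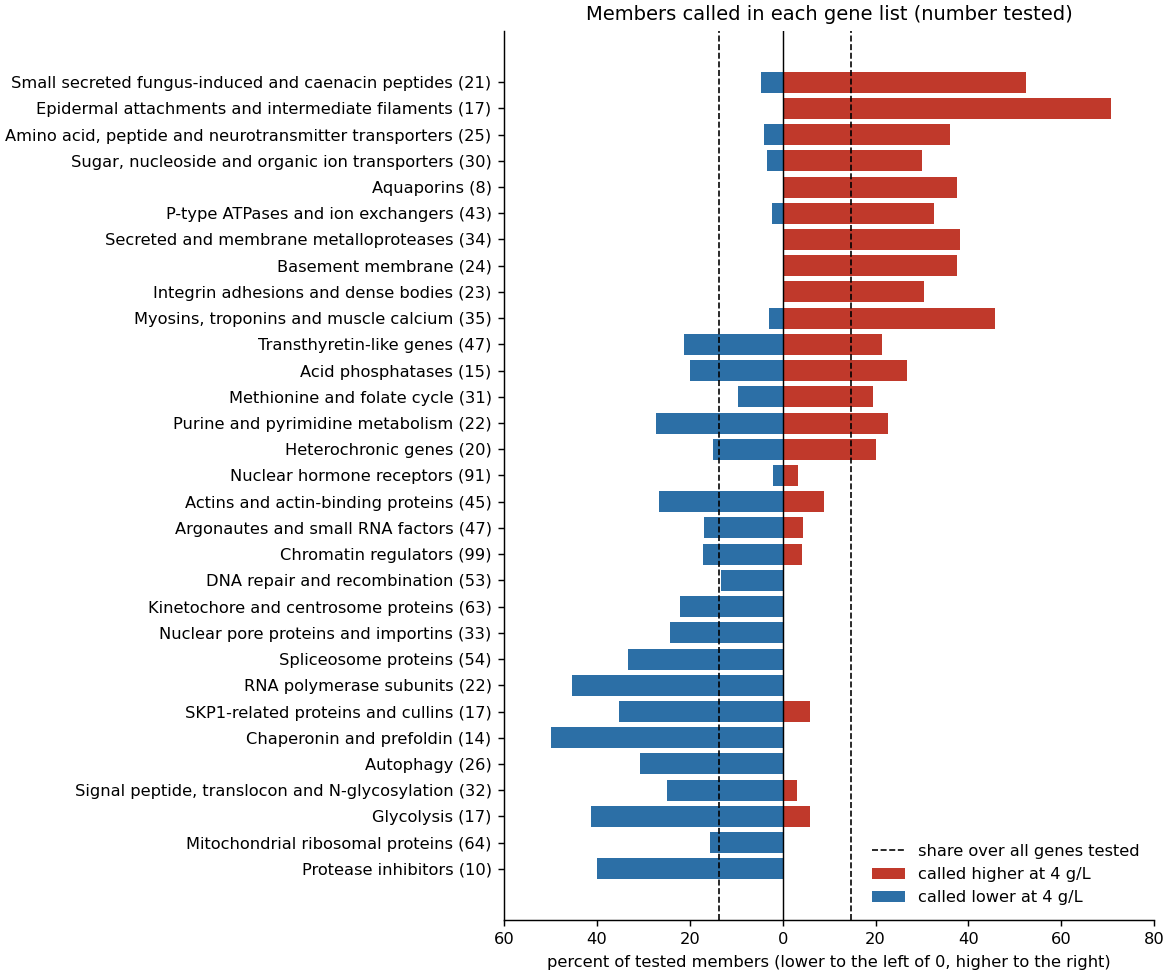
Percent of the tested members of 31 gene lists called higher (right of 0) or lower (left of 0) at 4 g/L, with the number tested in brackets; dashed lines mark the shares over all genes, 14.7% higher and 13.7% lower. Filaments, secreted peptides, transporters, metalloproteases and muscle genes stand to the right with few or no falls, while polymerase, spliceosome, chaperonin and glycolysis genes stand to the left.

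Among the falls of genes with a symbol that met the same conditions, the largest was that of dod-3 (CELE_C24B9.9, chromosome V, 2730622 to 2731098), named as a gene downstream of the forkhead factor daf-16. It had 24.3, 73.3, 27.1 and 26.5 in the 4 g/L libraries, against 191, 148, 136 and 134 in the controls. Exposed replicate 2 was the highest of its group and still below all controls. The log2 fold change was -2.13 ± 0.39 (SE; adjusted p = 5.54e-05 in limma). On reads over the size factor the difference within set 2, between 4 g/L replicate 2 and control replicate 1, was 0.10, against -2.64 and -2.81 in the other sets. The saposin-like gene spp-17 (CELE_C54G6.5, chromosome I, 1016405 to 1017176), of a family of small antimicrobial proteins, had 595, 339.6, 848 and 247 in the 4 g/L libraries, against 977, 1961, 2027 and 1514 in the controls. Every exposed library was below every control, with wide spread in both groups, and the change was -1.78 ± 0.21 (SE; adjusted p = 7.73e-09 in limma).

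Several falls were tight between wells. asp-13, an aspartyl protease gene (CELE_F28A12.4, chromosome V, 8641602 to 8643193), had 52.8, 58.6, 64.3 and 58.7 in the 4 g/L libraries, against 127, 166, 158 and 139 in the controls. Its exposed libraries lay close together below all controls and the change was -1.31 ± 0.16 (SE; adjusted p = 2.43e-08 in limma). acs-1, an acyl-CoA synthetase of branched-chain fatty acid metabolism, had 63.9, 59.1, 60.2 and 64.7 in the 4 g/L libraries, against 93.3, 181, 158 and 164 in the controls; the exposed libraries were nearly equal, control replicate 1 was the lowest control, and the change was -1.21 ± 0.23 (SE; adjusted p = 8.11e-05 in limma). The globin gene glb-1 had 124, 127, 134 and 121 in the 4 g/L libraries, against 355, 255, 342 and 209 in the controls. It too was even at 4 g/L and spread in the controls, and changed by -1.16 ± 0.21 (SE; adjusted p = 5.72e-05 in limma). The lysozyme gene lys-4 averaged 77.5 ± 11.39 at 4 g/L and 167 ± 24.1 in the controls (SD, n = 4 each) and changed by -1.095 ± 0.17 (SE; adjusted p = 2.2e-06 in limma).

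Others of the leading falls were the secreted SCP-like gene scl-2, the ferritin gene ftn-1, which stores iron, and the lectin-like genes clec-48 and clec-222. scl-2 had 170.4, 307, 195 and 212 in the 4 g/L libraries, against 412, 715, 631 and 581 in the controls, a change of -1.41 ± 0.19 (SE; adjusted p = 1.37e-07 in limma) that was -0.13 within set 2. ftn-1 had 26.5, 27.3, 42.6 and 17.6 in the 4 g/L libraries, against 74.2, 65.8, 88.5 and 70.1 in the controls, a change of -1.42 ± 0.34 (SE; adjusted p = 0.00168 in limma) that was -0.16 within set 2. ftn-1 was not called with voom (adjusted p = 0.102), and its adjusted p reached 0.102 over the 23 alternatives. clec-48 averaged 40.4 ± 7.45 at 4 g/L and 95.0 ± 9.64 in the controls (SD, n = 4 each) and clec-222 16.6 ± 7.06 at 4 g/L and 50.2 ± 14.2 in the controls (SD, n = 4 each), with changes of -1.23 ± 0.18 (SE; adjusted p = 1.26e-06 in limma) and -1.57 ± 0.26 (SE; adjusted p = 1.24e-05 in limma). None of these 4 genes overlapped between the groups. spex-3 averaged 267 ± 94.0 at 4 g/L and 637 ± 218 in the controls (SD, n = 4 each), a change of -1.253 ± 0.20 (SE; adjusted p = 5.09e-06 in limma), and the chemoreceptor-like gene sri-40 averaged 10.9 ± 3.72 at 4 g/L and 29.5 ± 8.63 in the controls (SD, n = 4 each), a change of -1.36 ± 0.34 (SE; adjusted p = 0.00245 in limma). sri-40 was not called with voom (adjusted p = 0.126), and its adjusted p reached 0.126 over the 23 alternatives. Among 39 infection response and CUB-like genes as a whole, 5 rose and 9 fell (median -0.03), so irg-3 and dod-3 were the ends of a list that moved both ways. dod-22, chosen after its values were seen, fell too, averaging 4.67 ± 1.37 at 4 g/L and 13.6 ± 5.41 in the controls (SD, n = 4 each). dod-22 was not called with voom (adjusted p = 0.0543), and its adjusted p reached 0.0577 over the 22 alternatives. In this list the counts were 4 and 5 with only the 8 libraries in the fit, and 4 and 6 without 4 g/L replicate 4.

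Acid phosphatases split in the same manner, with 4 of 15 higher and 3 lower (median 0.27). Their counts were 1 and 2 with only the 8 libraries in the fit, and 2 and 3 without 4 g/L replicate 4. pho-11 (CELE_C05C10.4, chromosome II, 9931849 to 9934431) had 301, 365, 293 and 289 in the 4 g/L libraries, against 646, 639, 708 and 677 in the controls. It had the smallest standard error of the leading falls, with a mean at 4 g/L of 0.467 times the control mean, and changed by -1.101 ± 0.09 (SE; adjusted p = 8.17e-14 in limma). acp-6 (CELE_Y73B6BL.24, chromosome IV, 6424600 to 6426139) had 495, 365, 506 and 274 in the 4 g/L libraries, against 726, 1042, 972 and 966 in the controls, a change of -1.204 ± 0.13 (SE; adjusted p = 9.26e-11 in limma) without overlap. pho-13 went the other way and averaged 41.4 ± 10.99 at 4 g/L and 20.99 ± 6.28 in the controls (SD, n = 4 each), a change of 0.96 ± 0.26 (SE; adjusted p = 0.0051 in limma). pho-8, pho-4 and pho-1 rose by 1.08, 0.81 and 0.55 on the log2 scale. Among 41 lysosomal hydrolases and membrane genes, 7 rose (17.1%) and 5 fell (12.2%), near the 14.7% and 13.7% over all genes. For these the counts were 3 and 2 with only the 8 libraries in the fit, and 6 and 4 without 4 g/L replicate 4. The acid ceramidase gene asah-1 had 373, 352, 436 and 441 in the 4 g/L libraries, against 212, 245, 224 and 174 in the controls, a change of 0.91 ± 0.17 (SE; adjusted p = 0.000127 in limma), and the scavenger receptor-like gene scav-4 averaged 36.9 ± 6.47 at 4 g/L and 15.4 ± 3.79 in the controls (SD, n = 4 each), a change of 1.22 ± 0.28 (SE; adjusted p = 0.00105 in limma). The groups were apart in both. The members that fell were cln-3.2, cup-5, gba-4, nuc-1 and scav-3, at -0.79, -0.79, -0.65, -0.62 and -0.37 on the log2 scale.

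Lists of RNA polymerase subunits, splicing factors and nuclear pore genes held falls and no rises, though most of their members were not called. For subunits of the RNA polymerases, of 22 tested, 0 were called higher and 10 (45.5%) lower, and the median log2 fold change was -0.35. The counts were 0 and 4 with only the 8 libraries in the fit, and 0 and 5 without 4 g/L replicate 4. rpoa-12, a small subunit of RNA polymerase I, had 71.4, 64.1, 92.8 and 62.4 in the 4 g/L libraries, against 102, 121, 125 and 121 in the controls. The groups were apart, exposed replicate 3 was the highest of its group, and the change was -0.70 ± 0.13 (SE; adjusted p = 9.15e-05 in limma). rpb-12, a small subunit shared between polymerases, had 56.7, 54.5, 73.8 and 45.98 in the 4 g/L libraries, against 94.7, 79.9, 100.2 and 99.9 in the controls, also without overlap; the change was -0.70 ± 0.17 (SE; adjusted p = 0.00211 in limma) overall and 0 within set 3. rpb-4 averaged 93.6 ± 14 at 4 g/L and 139.5 ± 22.6 in the controls (SD, n = 4 each) and changed by -0.57 ± 0.14 (SE; adjusted p = 0.00182 in limma). Among genes named rpb, subunits of RNA polymerase II, 8 of 11 fell. The largest subunit, ama-1, chosen after its values were seen, had 65.7, 71.7, 62.8 and 73.6 in the 4 g/L libraries, against 103, 75.4, 104.4 and 62.5 in the controls. Its groups overlapped and it was not called at -0.30 ± 0.20 (SE; adjusted p = 0.263 in limma).

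Among splicing factors there was no rise. Of 54 tested, 0 were called higher and 18 (33.3%) lower, and the median log2 fold change was -0.31. The counts were 0 and 8 with only the 8 libraries in the fit, and 0 and 9 without 4 g/L replicate 4. rnp-2, a protein of the U1 small nuclear ribonucleoprotein, had 82.8, 69.4, 82.9 and 58.1 in the 4 g/L libraries, against 140.3, 126, 129 and 110.1 in the controls, without overlap, and changed by -0.79 ± 0.13 (SE; adjusted p = 1.67e-05 in limma). The tri-snRNP gene prp-4 averaged 44.5 ± 3.98 at 4 g/L and 69.2 ± 6.92 in the controls (SD, n = 4 each) and changed by -0.62 ± 0.16 (SE; adjusted p = 0.00256 in limma). All 7 Sm core protein genes snr-1 to snr-7 fell, among them snr-6 at -0.58 ± 0.12 (chosen after its values were seen), snr-3 at -0.54 and snr-4 at -0.47. In nuclear pores and importins, 8 of 33 fell and 0 rose (median -0.26), with npp-23 averaging 50.7 ± 10.3 at 4 g/L and 76.5 ± 5.66 in the controls (SD, n = 4 each), a change of -0.60 ± 0.13 (SE; adjusted p = 0.000846 in limma), and npp-16 averaging 151.2 ± 25.9 at 4 g/L and 217 ± 21.2 in the controls (SD, n = 4 each), a change of -0.53 ± 0.12 (SE; adjusted p = 0.001 in limma). The counts in nuclear pores were 0 and 2 with only the 8 libraries in the fit, and 0 and 3 without 4 g/L replicate 4. Of 17 genes named mdt, the Mediator complex that links transcription factors to the polymerase, 6 fell and 0 rose. mdt-18, chosen after its values were seen, had 31.2, 23.5, 28.8 and 31.8 in the 4 g/L libraries, against 43.4, 41.8, 57.3 and 63.5 in the controls, a change of -0.80 ± 0.20 (SE; adjusted p = 0.00288 in limma) without overlap.

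Lists of cell division, DNA repair and chromatin genes held more falls than rises, and the rises were all among chromatin regulators. Among 63 kinetochore and centrosome genes 14 (22.2%) fell and 0 rose, with a median of -0.19. cpar-1, a centromeric histone H3 variant, had 55.4, 41.99, 45.9 and 31.6 in the 4 g/L libraries, against 65.1, 77.4, 91.1 and 71.4 in the controls. All exposed libraries were below all controls and the change was -0.80 ± 0.19 (SE; adjusted p = 0.00135 in limma). The checkpoint gene mdf-2 averaged 53.2 ± 10.9 at 4 g/L and 80.7 ± 14.9 in the controls (SD, n = 4 each) and changed by -0.59 ± 0.17 (SE; adjusted p = 0.00932 in limma). mdf-2 was not called with only the 8 libraries in the fit (limma adjusted p = 0.0659), with voom (adjusted p = 0.0633) or without 4 g/L replicate 4, and its adjusted p reached 0.0788 over the 23 alternatives. In DNA repair 7 of 53 fell and 0 rose (13.2%, about the share over all genes). In chromatin regulators 17 of 99 fell (17.2%) and 4 rose (4.04%), with a median of -0.19. Over all genes 13.7% fell and 14.7% rose. With only the 8 libraries the falls numbered 5 for kinetochores, 0 for repair and 6 for chromatin, and without 4 g/L replicate 4 they numbered 5, 2 and 6. For chromatin the last is about the 6.4% over all genes without that replicate. These genes are widely used in the germ line, whose 43 markers summed to 10161.0 to 13702.6 at 4 g/L and 14573.1 to 17797.0 in the controls, with 0 markers at 0 reads in either group; the part of the germ line in these falls was not tested.

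Actin-related genes had calls in both directions. Of 45 tested, 4 (8.89%) were called higher and 12 (26.7%) lower, and the median log2 fold change was -0.20. The counts were 2 and 2 with only the 8 libraries in the fit, and 2 and 6 without 4 g/L replicate 4. Of the 6 measured subunits of the Arp2/3 complex, which starts branched actin filaments, 4 fell and 2 were not called, and of the 4 genes of the WAVE complex, which switches it on, 2 fell and 2 were not called; both groups were put together after the values were seen. arx-3 had 30.6, 25.9, 23.97 and 22.1 in the 4 g/L libraries, against 51.9, 36.5, 40.7 and 37.3 in the controls, without overlap, and changed by -0.67 ± 0.19 (SE; adjusted p = 0.00684 in limma), with an adjusted p of 0.0548 with only the 8 libraries. wve-1, the WAVE protein, had 30.3, 31.1, 21.3 and 22.3 in the 4 g/L libraries, against 39.9, 33.2, 49.1 and 45.97 in the controls, and changed by -0.66 ± 0.19 (SE; adjusted p = 0.00728 in limma). wve-1 was not called with only the 8 libraries in the fit (limma adjusted p = 0.0646) or with voom (adjusted p = 0.0858), and its adjusted p reached 0.0858 over the 23 alternatives. gex-2 averaged 12.8 ± 4.59 at 4 g/L and 20.5 ± 4.48 in the controls (SD, n = 4 each) and changed by -0.68 ± 0.25 (SE; adjusted p = 0.0372 in limma). gex-2 was not called with only the 8 libraries in the fit (limma adjusted p = 0.132), with voom (adjusted p = 0.12) or without 4 g/L replicate 2, 4 g/L replicate 4, control replicate 1, control replicate 2 or control replicate 3, and its adjusted p reached 0.178 over the 23 alternatives. The 4 members that rose were act-5, the spectrin gene unc-70 at 0.89, and the formin genes fhod-1 at 0.86 and exc-6 at 0.65 on the log2 scale.

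In dynactin, the complex that couples dynein to its cargo, 3 of 7 genes fell and 4 were not called, again a group put together after the values were seen. dnc-6 had 38.5, 42.6, 33.9 and 32.6 in the 4 g/L libraries, against 64.8, 71.3, 84.4 and 51 in the controls, with the groups apart, and changed by -0.85 ± 0.16 (SE; adjusted p = 0.000124 in limma). dnc-4 had 38.1, 19.9, 22.97 and 40.4 in the 4 g/L libraries, against 52.8, 48.2, 48.6 and 53.1 in the controls; exposed replicates 2 and 3 were lower than 1 and 4, all were below the controls, and the change was -0.78 ± 0.19 (SE; adjusted p = 0.00179 in limma). dnc-4 was not called with only the 8 libraries in the fit (limma adjusted p = 0.0539). The long arm subunit dnc-1 was not called at 0.16 ± 0.19 (SE, limma adjusted p = 0.559). Of 17 innexins, the gap junction proteins of invertebrates, 3 rose and 4 fell. Innexin counts were 1 and 1 with only the 8 libraries in the fit, and 0 and 3 without 4 g/L replicate 4. inx-14, an innexin of the germ line, had 63.9, 65.9, 55.96 and 49.6 in the 4 g/L libraries, against 88.4, 94.8, 76.9 and 90.1 in the controls, a change of -0.57 ± 0.16 (SE; adjusted p = 0.00768 in limma). inx-14 was not called without 4 g/L replicate 4, and its adjusted p reached 0.0519 over the 23 alternatives. inx-15, inx-1 and inx-17 rose by 0.79, 0.79 and 0.80 on the log2 scale.

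Lists of protein folding, turnover and the secretory entry held larger shares of falls than all genes, most of them lost with only the 8 libraries. In the chaperonin and prefoldin, which fold actin and tubulin, of 14 tested, 0 were called higher and 7 (50%) lower, and the median log2 fold change was -0.29. The counts were 0 and 1 with only the 8 libraries in the fit, and 0 and 3 without 4 g/L replicate 4. Of the 6 prefoldin genes 4 fell and of the 8 chaperonin genes 3 fell, and every one of the 14 had a fold change below 0. pfd-6 averaged 165 ± 36.2 at 4 g/L and 235 ± 19.2 in the controls (SD, n = 4 each) and changed by -0.53 ± 0.16 (SE; adjusted p = 0.0104 in limma). pfd-6 was not called without 4 g/L replicate 4, and its adjusted p reached 0.0691 over the 23 alternatives. cct-1, chosen after its values were seen, had 259, 239, 206 and 218 in the 4 g/L libraries, against 273, 332, 306 and 300.0 in the controls; the exposed libraries were all below the controls, and the change was -0.39 ± 0.11 (SE; adjusted p = 0.00491 in limma), with an adjusted p of 0.0509 with only the 8 libraries. In the signal peptide, translocon and N-glycosylation list 8 of 32 fell and 1 rose, and 2 fell with only the 8 libraries and likewise without 4 g/L replicate 4, which is 6.25%, about the 6.4% over all genes without that replicate. sec-11, a subunit of the signal peptidase, averaged 130.4 ± 23.2 at 4 g/L and 184 ± 15.3 in the controls (SD, n = 4 each) and changed by -0.51 ± 0.11 (SE; adjusted p = 0.000535 in limma), without overlap.

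Among autophagy genes the calls were falls, though 18 of 26 were not called. Of 26 tested, 0 were called higher and 8 (30.8%) lower, and the median log2 fold change was -0.26. The counts were 0 and 0 with only the 8 libraries in the fit, and 0 and 3 without 4 g/L replicate 4. epg-9, a partner of the kinase that starts autophagosomes, had 29.03, 20.5, 7.53 and 26.9 in the 4 g/L libraries, against 36.9, 56.6, 35.9 and 41.5 in the controls. Replicate 3 was the lowest exposed library, all 4 were below the controls, and the change was -1.12 ± 0.28 (SE; adjusted p = 0.00244 in limma). epg-9 was not called with only the 8 libraries in the fit (limma adjusted p = 0.0581). vps-15, a regulatory kinase of the lipid kinase complex of autophagy, averaged 41.1 ± 9.85 at 4 g/L and 62.5 ± 5.12 in the controls (SD, n = 4 each) and changed by -0.62 ± 0.20 (SE; adjusted p = 0.016 in limma). vps-15 was not called with only the 8 libraries in the fit (limma adjusted p = 0.0629), with voom (adjusted p = 0.054) or without 4 g/L replicate 2, and its adjusted p reached 0.107 over the 23 alternatives. The autophagosome marker gene lgg-1, chosen after its values were seen, had 360.4, 591, 287 and 463 in the 4 g/L libraries, against 385, 533, 469 and 555 in the controls, with overlap, and was not called at -0.23 ± 0.16 (SE; adjusted p = 0.278 in limma). vps-35, of the retromer that recycles cargo from endosomes and likewise chosen afterwards, averaged 45.3 ± 8.45 at 4 g/L and 70.4 ± 5.96 in the controls (SD, n = 4 each) and changed by -0.64 ± 0.18 (SE; adjusted p = 0.00608 in limma).

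Of 10 protease inhibitors 4 fell and 0 rose, and 3 and 0 did so with only the 8 libraries and without 4 g/L replicate 4. The cystatin gene cpi-1 had 304, 277, 329.7 and 272 in the 4 g/L libraries, against 465, 512, 622 and 474 in the controls. The exposed libraries lay close together below all controls, and the change was -0.80 ± 0.14 (SE; adjusted p = 2.94e-05 in limma). Its relative cpi-2 averaged 284 ± 18.1 at 4 g/L and 474 ± 133 in the controls (SD, n = 4 each) and changed by -0.70 ± 0.13 (SE; adjusted p = 7e-05 in limma), and the serpin gene srp-2 averaged 77.2 ± 16.7 at 4 g/L and 127 ± 8.38 in the controls (SD, n = 4 each) and changed by -0.73 ± 0.19 (SE; adjusted p = 0.00322 in limma). Neither overlapped. Among SKP1-related proteins and cullins, parts of ubiquitin ligases, 6 of 17 fell and 1 rose (median -0.45). skr-17 had 59.1, 66.9, 72.5 and 43.1 in the 4 g/L libraries, against 80.7, 102, 101 and 115 in the controls, without overlap, and changed by -0.73 ± 0.13 (SE; adjusted p = 7.13e-05 in limma). With only the 8 libraries 2 of these were called lower.

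In glycolysis of 17 tested, 1 (5.88%) was called higher and 7 (41.2%) lower, and the median log2 fold change was -0.30. The counts were 1 and 3 with only the 8 libraries in the fit, and 1 and 1 without 4 g/L replicate 4. aldo-2, the main aldolase, had 1445, 1507, 1554 and 1394 in the 4 g/L libraries, against 1686, 2198, 2306 and 1754 in the controls. The groups were apart, with exposed replicate 3 and control replicate 1 the nearest to each other, and the change was -0.42 ± 0.14 (SE; adjusted p = 0.0187 in limma). aldo-2 was not called without 4 g/L replicate 4, control replicate 2 or control replicate 3, and its adjusted p reached 0.082 over the 23 alternatives. gpd-4 averaged 103 ± 15.98 at 4 g/L and 181 ± 42.7 in the controls (SD, n = 4 each) and changed by -0.78 ± 0.14 (SE; adjusted p = 5.08e-05 in limma); it and gpd-1 are near-identical copies, so their split of reads is uncertain. The phosphofructokinase gene pfk-1.2 was the 1 that rose. Chosen after its values were seen, it had 26.97, 28.5, 22.1 and 40.9 in the 4 g/L libraries, against 20.5, 5.09, 9.40 and 6.11 in the controls. Control replicate 1 was the highest control, all exposed libraries stood above it, and the change was 1.59 ± 0.36 (SE; adjusted p = 0.000986 in limma). Of 14 genes of glycogen and trehalose hydrolysis 2 rose (14.3%) and 3 fell (21.4%), with a median of 0.03: gyg-2, gsy-1 and pygl-1 fell by 0.65, 0.53 and 0.42 on the log2 scale, and aagr-3 and tre-3 rose by 0.46 and 0.69. For this list the counts were 1 and 1 with only the 8 libraries in the fit, and 1 and 2 without 4 g/L replicate 4.

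Nucleotide metabolism had calls in both directions. Of 22 genes of purine and pyrimidine metabolism 5 rose and 6 fell (median -0.08). Here the counts were 3 and 2 with only the 8 libraries in the fit, and 2 and 2 without 4 g/L replicate 4. A division of the list by role, made after the values were seen, put all 5 genes of thymidylate and deoxynucleotide synthesis, dhfr-1 included, among the falls, and 5 of 7 genes of nucleotide breakdown and salvage among the rises, with the 2 others not called. rnr-2, the small subunit of ribonucleotide reductase, had 306, 258, 358 and 256 in the 4 g/L libraries, against 364, 468, 420.1 and 512 in the controls. The groups did not overlap and the change was -0.58 ± 0.14 (SE; adjusted p = 0.00137 in limma). The thymidylate synthase gene tyms-1 had 28.4, 43.2, 40.9 and 27.2 in the 4 g/L libraries, against 51.2, 76.2, 65.8 and 51.7 in the controls, a change of -0.80 ± 0.20 (SE; adjusted p = 0.00218 in limma), and the dihydrofolate reductase gene dhfr-1 averaged 94.7 ± 15.3 at 4 g/L and 153 ± 13.8 in the controls (SD, n = 4 each), a change of -0.70 ± 0.12 (SE; adjusted p = 4.02e-05 in limma). rnr-1 and dut-1 changed by -0.43 ± 0.15 and -0.59 ± 0.17. rnr-1 was not called with only the 8 libraries in the fit (limma adjusted p = 0.0618) or without 4 g/L replicate 2, 4 g/L replicate 4, control replicate 2 or control replicate 3, and its adjusted p reached 0.126 over the 23 alternatives. dut-1 was not called with only the 8 libraries in the fit (limma adjusted p = 0.0649) or without 4 g/L replicate 4 or control replicate 2, and its adjusted p reached 0.103 over the 23 alternatives.

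On the side of breakdown, the xanthine dehydrogenase gene xdh-1, whose enzyme makes uric acid, had 23.98, 28.1, 26.7 and 39.5 in the 4 g/L libraries, against 17.1, 6.24, 11.5 and 6.89 in the controls. All exposed libraries were above all controls, and the change was 1.495 ± 0.32 (SE; adjusted p = 0.000546 in limma). The guanine deaminase gene gda-1 had 96.7, 144, 72.1 and 80.4 in the 4 g/L libraries, against 40.3, 32.9, 57.2 and 43.8 in the controls, without overlap, and changed by 1.13 ± 0.21 (SE; adjusted p = 5.51e-05 in limma). The cytidine deaminase gene cdd-1 read 41.1, 52.5, 57.05 and 74.1 in the 4 g/L libraries, against 58.2, 17.9, 23.7 and 15.4 in the controls; control replicate 1 stood above 3 exposed libraries, and the change was 1.11 ± 0.32 (SE; adjusted p = 0.00764 in limma). cdd-1 was not called with only the 8 libraries in the fit (limma adjusted p = 0.0569) or without 4 g/L replicate 4 or control replicate 4. dhp-1, a dihydropyrimidinase gene, averaged 44.2 ± 5.69 at 4 g/L and 26.3 ± 5.40 in the controls (SD, n = 4 each) and changed by 0.75 ± 0.24 (SE; adjusted p = 0.0176 in limma). dhp-1 was not called with the set term (limma adjusted p = 0.133), with voom (adjusted p = 0.0788) or without 4 g/L replicate 4 or control replicate 4, and its adjusted p reached 0.133 over the 23 alternatives. Purine synthesis from small precursors had 2 of 5 genes lower, ppat-1 at -0.56 ± 0.21 and atic-1 at -0.52 ± 0.19, neither of them firm. ppat-1 was not called with only the 8 libraries in the fit (limma adjusted p = 0.126), with the set term (limma adjusted p = 0.117), with voom (adjusted p = 0.186) or without 4 g/L replicate 2, 4 g/L replicate 4, control replicate 1, control replicate 3 or control replicate 4, and its adjusted p reached 0.241 over the 23 alternatives. atic-1 was not called with only the 8 libraries in the fit (limma adjusted p = 0.109), with voom (adjusted p = 0.0826) or without 4 g/L replicate 3, 4 g/L replicate 4, control replicate 2 or control replicate 3, and its adjusted p reached 0.11 over the 23 alternatives.

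The methionine and folate cycle had 6 of 31 genes higher (19.4%) and 3 lower (9.68%), with a median of 0.01. Over all genes the shares were 14.7% and 13.7%. In it the counts were 4 and 2 with only the 8 libraries in the fit, and 3 and 2 without 4 g/L replicate 4. sams-5, an S-adenosylmethionine synthetase gene, averaged 88.4 ± 27.4 at 4 g/L and 32.3 ± 14.9 in the controls (SD, n = 4 each) and changed by 1.51 ± 0.38 (SE; adjusted p = 0.00251 in limma), without overlap. Its relative sams-1 varied between wells in both groups, at 435, 185, 402 and 237 in the 4 g/L libraries, against 315, 93.8, 241 and 142 in the controls, and was not called at 0.73 ± 0.41 (SE; adjusted p = 0.172 in limma). pmt-1, a methyltransferase gene of the pathway from phosphoethanolamine to phosphocholine, had 407, 488, 393 and 504 in the 4 g/L libraries, against 303, 312, 283 and 306 in the controls. Controls and exposed libraries were each close together and apart from one another, and the change was 0.56 ± 0.12 (SE; adjusted p = 0.000379 in limma). cbs-2, a cystathionine beta-synthase gene, averaged 27.7 ± 16.8 at 4 g/L and 8.80 ± 5.95 in the controls (SD, n = 4 each) and changed by 1.559 ± 0.45 (SE; adjusted p = 0.00808 in limma). cbs-2 was not called without 4 g/L replicate 4, and its adjusted p reached 0.0751 over the 23 alternatives. sams-1, pmt-1 and cbs-2 were chosen after their values were seen. The acyltransferase gene dgat-2, of triglyceride synthesis, averaged 45.1 ± 10.4 at 4 g/L and 19.9 ± 3.02 in the controls (SD, n = 4 each) and changed by 1.13 ± 0.25 (SE; adjusted p = 0.000668 in limma). In metal and haem handling 5 of 28 rose (17.9%) and 3 fell (10.7%), near the shares over all genes. The counts were 3 and 1 with only the 8 libraries in the fit, and 3 and 1 without 4 g/L replicate 4. Besides hrg-7, the haem transporter gene hrg-4 averaged 30.9 ± 9.93 at 4 g/L and 13.1 ± 3.70 in the controls (SD, n = 4 each), a change of 1.16 ± 0.28 (SE; adjusted p = 0.0018 in limma), and the zinc transporter gene zipt-1 had 50.6, 22.6, 40.8 and 42.7 in the 4 g/L libraries, against 69.0, 83.8, 71.0 and 71.0 in the controls, a change of -0.95 ± 0.16 (SE; adjusted p = 1.54e-05 in limma) with no overlap.

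Some families held members called in both directions. Over all genes 14.7% were called higher and 13.7% lower. Of 47 transthyretin-like genes, secreted proteins largely confined to nematodes, 10 rose and 10 fell (median -0.01). In this family the counts were 4 and 3 with only the 8 libraries in the fit, and 5 and 8 without 4 g/L replicate 4. ttr-14 stood far above the other risers, which ranged from 0.59 to 1.13 on the log2 scale, and ttr-17, chosen after its values were seen, was the largest fall, with 55.95, 74.0, 41.8 and 46.4 in the 4 g/L libraries, against 111, 116, 100 and 87.5 in the controls, a change of -0.94 ± 0.20 (SE; adjusted p = 0.000639 in limma). Among 11 galectins lec-3 and lec-2 rose and lec-4, lec-6 and lec-5 fell, with counts of 1 and 0 with only the 8 libraries in the fit, and 2 and 2 without 4 g/L replicate 4. lec-3 had 86.6, 99.0, 50.7 and 114 in the 4 g/L libraries, against 70.6, 21.6, 48.1 and 32.8 in the controls; control replicate 1 overlapped the exposed libraries, and the change was 1.07 ± 0.27 (SE; adjusted p = 0.00265 in limma). lec-3 was not called with only the 8 libraries in the fit (limma adjusted p = 0.0545). Of 47 argonautes and small RNA factors 8 fell (17.0%, near the share over all genes) and 2 rose (4.26%). The counts of rises and falls were 1 and 4 with only the 8 libraries in the fit, and 1 and 4 without 4 g/L replicate 4. The risers were alg-3 and alg-4, argonautes that act in sperm formation. alg-4 had 57.3, 35.9, 53.8 and 132 in the 4 g/L libraries, against 42.8, 14.4, 18.5 and 7.11 in the controls, with control replicate 1 above exposed replicate 2, and changed by 1.80 ± 0.40 (SE; adjusted p = 0.0008 in limma); alg-3 averaged 42.6 ± 27.9 at 4 g/L and 19.02 ± 9.43 in the controls (SD, n = 4 each) and changed by 1.06 ± 0.39 (SE; adjusted p = 0.037 in limma). alg-3 was not called with only the 8 libraries in the fit (limma adjusted p = 0.0884), with voom (adjusted p = 0.0721) or without 4 g/L replicate 4, control replicate 2, control replicate 3 or control replicate 4, and its adjusted p reached 0.255 over the 23 alternatives. The adenine nucleotide carrier gene ant-1.3, of the mitochondrial carrier family, had 81.8, 70.0, 46.8 and 212 in the 4 g/L libraries, against 68.8, 12.6, 22.5 and 7.59 in the controls, a change of 2.07 ± 0.57 (SE; adjusted p = 0.0055 in limma). ant-1.3 was not called without 4 g/L replicate 4, and its adjusted p reached 0.0565 over the 23 alternatives. In these 3 genes control replicate 1 and exposed replicate 4 were the highest of their groups, as they were for the summed sperm markers; the part of sperm-making cells was not tested.

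Heterochronic genes, which set the timing of larval stages, had 4 of 20 higher (20.0%) and 3 lower (15.0%), with a median of -0.02. These shares were near the 14.7% and 13.7% over all genes. Their counts were 1 and 1 with only the 8 libraries in the fit, and 1 and 0 without 4 g/L replicate 4. lin-28, an RNA-binding protein of the early stages, had 17.5, 32.3, 29.4 and 18.01 in the 4 g/L libraries, against 41.02, 36.1, 44.7 and 30.5 in the controls. Exposed replicate 2 overlapped the lowest control, and the change was -0.66 ± 0.20 (SE; adjusted p = 0.0131 in limma). lin-28 was not called with only the 8 libraries in the fit (limma adjusted p = 0.0941) or without 4 g/L replicate 1, 4 g/L replicate 4 or control replicate 3. lin-41, which acts later and is also active in oocytes, had 57.2, 66.9, 55.8 and 57.6 in the 4 g/L libraries, against 90.1, 73.3, 96.8 and 96.2 in the controls, without overlap, and changed by -0.57 ± 0.21 (SE; adjusted p = 0.0384 in limma). lin-41 was not called with voom (adjusted p = 0.083) or without 4 g/L replicate 1, 4 g/L replicate 3, 4 g/L replicate 4, control replicate 1, control replicate 3 or control replicate 4, and its adjusted p reached 0.0941 over the 23 alternatives. lin-14, chosen after its values were seen, had 16.1, 15.3, 11.2 and 16.6 in the 4 g/L libraries, against 10.6, 7.59, 8.14 and 7.002 in the controls, also without overlap, and changed in the other direction by 0.76 ± 0.28 (SE; adjusted p = 0.0355 in limma). lin-14 was not called with only the 8 libraries in the fit (limma adjusted p = 0.0766), with the set term (limma adjusted p = 0.0543), with voom (adjusted p = 0.0614) or without 4 g/L replicate 1, 4 g/L replicate 2, 4 g/L replicate 4, control replicate 2, control replicate 3 or control replicate 4, and its adjusted p reached 0.155 over the 22 alternatives. lin-42, which is known to cycle with the moults and was likewise chosen afterwards, read 11.6, 23.8, 3.60 and 26.3 in the 4 g/L libraries, against 7.40, 4.69, 7.56 and 7.11 in the controls, with exposed replicate 3 below all controls and the other 3 above them, and changed by 0.89 ± 0.30 (SE; adjusted p = 0.021 in limma). lin-42 was not called with only the 8 libraries in the fit (limma adjusted p = 0.216), with the set term (limma adjusted p = 0.0584), with voom (adjusted p = 0.0554) or without 4 g/L replicate 2, 4 g/L replicate 4 or control replicate 2, and its adjusted p reached 0.269 over the 22 alternatives. alg-2, a microRNA argonaute on the same list, averaged 10.6 ± 4.70 at 4 g/L and 18.96 ± 4.24 in the controls (SD, n = 4 each) and changed by -0.86 ± 0.32 (SE; adjusted p = 0.0382 in limma). alg-2 was not called with only the 8 libraries in the fit (limma adjusted p = 0.0964), with the set term (limma adjusted p = 0.0526), with voom (adjusted p = 0.132) or without 4 g/L replicate 2, 4 g/L replicate 4, control replicate 3 or control replicate 4, and its adjusted p reached 0.201 over the 23 alternatives.

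Other regulators held few calls. Of 91 nuclear hormone receptors 3 (3.30%) rose and 2 (2.20%) fell, and of 47 F-box genes 1 rose and 5 fell. TGF-beta, Wnt and Notch components had 3 of 48 higher and 4 lower, potassium channels 2 of 25 and 0, and tubulins 1 of 11 and 0. Mitochondrial ribosomal proteins had 0 of 64 higher and 10 (15.6%) lower, near the share over all genes, with mrpl-50 at -0.59 ± 0.16 (SE; adjusted p = 0.00455 in limma) and an adjusted p of 0.0524 with only the 8 libraries, which called 1 of the 64 lower; 3 were lower without 4 g/L replicate 4. Genes were also grouped by the letters of their names, in classes of at least 8 tested genes. In 30 of these classes no member was called lower, in 41 no member was called higher, and in 5 no member was called. The classes with the highest shares of rises were fipr (10 of 13), nep (10 of 14), nspg and snf (4 of 8 each), vha (9 of 20), kin (8 of 18) and pho (4 of 9), and those with the highest shares of falls rpb (8 of 11), puf (5 of 8), rpn (6 of 11), dod (4 of 8), cpg (4 of 9), skr (5 of 12), trpp (4 of 10), cct and epg (3 of 8 each). With only the 8 libraries the rises in the first 7 classes numbered 10, 3, 3, 2, 7, 3 and 1, and the falls in the other 9 numbered 3, 4, 3, 2, 5, 2, 2, 0 and 0.

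A smaller share of genes was called lower on X. Of the 1288 tested genes on X 16.9% were called higher and 7.22% lower, with a median log2 fold change of 0.13, whereas on the autosomes 9.96% to 16.9% were higher and 13.0% to 16.6% lower. The median of X was 0.15, 0.05 and 0.16 within the 3 sets. The lowest share of rises was on chromosome III, where 9.96% rose and 16.6% fell (median -0.12). With only the 8 libraries 8.54% of X genes were higher and 2.56% lower, against 3.74% to 9.0% and 3.22% to 5.25% on the autosomes, and without 4 g/L replicate 4 4.43% of X genes were lower, against 5.0% to 7.54%; the gap in falls was narrower in both. Outside the lists set aside the share of falls on X was 6.99%. X genes had a lower median control value, 17.6, than the other chromosomes, 31.5 to 55.7, and genes expressed in the germ line are known to be scarce on X; the part of either was not tested.

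**Figure D4:**
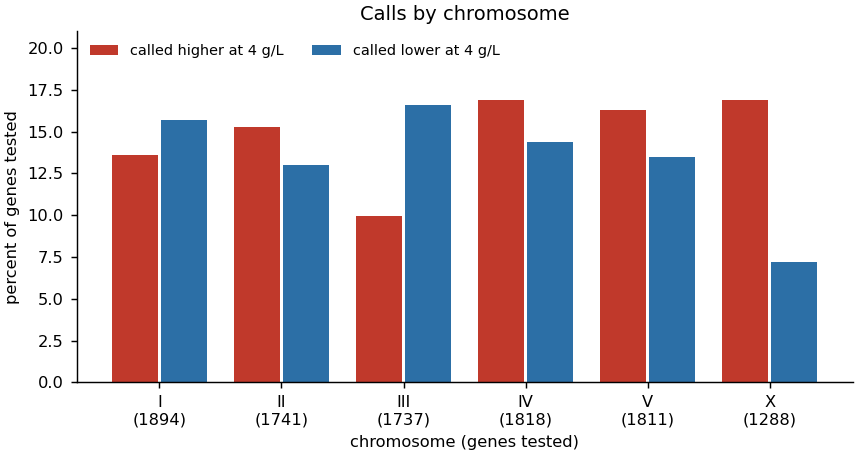
Percent of the tested genes of each chromosome called higher or lower at 4 g/L, with the number of genes tested in brackets. Falls are fewest on X, at 7.22%, and rises fewest on III, at 9.96%.

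In 25 places at least 4 neighbouring tested genes were called the same way, 15 higher and 10 lower, 110 genes in all. Without 4 g/L replicate 4 there were 4 such places, and 3 with only the 8 libraries. One lay on chromosome V from 12922608 to 12950862 (WBcel235) and held dhrs-4, T16G1.7, T16G1.6, T16G1.4 and T16G1.9, all higher at 4 g/L. T16G1.6 (CELE_T16G1.6, chromosome V, 12935538 to 12937174) had the largest rise in it. Its values were 288, 378, 277 and 335 in the 4 g/L libraries, against 6.35, 8.91, 3.12 and 8.28 in the controls. That is 48.0 times the control mean on the linear scale, from 809 reads over the 4 exposed libraries and 17 over the controls, and a log2 fold change of 5.45 ± 0.33 (SE; adjusted p = 4.65e-20 in limma). T16G1.7 had 75.5, 89.01, 66.5 and 77.8 in the 4 g/L libraries, against 30.8, 19.9, 20.4 and 32.4 in the controls, also without overlap, and changed by 1.57 ± 0.23 (SE; adjusted p = 9.28e-07 in limma). T16G1.4 was near the bottom of the scale in the controls and averaged 8.49 ± 4.31 at 4 g/L and 2.96 ± 0.0867 in the controls (SD, n = 4 each). T16G1.4 was not called with only the 8 libraries in the fit (limma adjusted p = 0.0549) or without 4 g/L replicate 1, 4 g/L replicate 3 or 4 g/L replicate 4, and its adjusted p reached 0.0584 over the 19 alternatives.

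Another run of rises lay on chromosome V from 10220981 to 10230163 and held fipr-5, fipr-9, daf-36, fipr-4 and fipr-7, and one on chromosome II from 13981365 to 14002306 held Y39G8B.9, F01D5.1, F01D5.3 and F01D5.5, all 4 of which were called with only the 8 libraries as well. On chromosome I, from 4148870 to 4161113, R12E2.15, R12E2.14, R12E2.7 and inx-15 rose together. R12E2.7 had 2.95, 211, 41.6 and 793 in the 4 g/L libraries, against 13.97, 2.53, 16.3 and 7.68 in the controls. Exposed replicate 1 was within the controls and replicate 4 was far above all others, and the change was 2.95 ± 0.78 (SE; adjusted p = 0.00414 in limma). R12E2.7 was not called with only the 8 libraries in the fit (limma adjusted p = 0.107), with voom (adjusted p = 0.101) or without 4 g/L replicate 4, and its adjusted p reached 0.183 over the 23 alternatives. Among the runs of falls, ZK813.3, ZK813.2, ZK813.7 and ZK813.1 lay on X from 3441839 to 3446875, and all 4 were also called with only the 8 libraries. ZK813.2 had 124, 86.6, 148 and 107 in the 4 g/L libraries, against 244, 431, 366 and 244 in the controls, without overlap, and changed by -1.44 ± 0.23 (SE; adjusted p = 4.4e-06 in limma). R08F11.4, in a run of 4 on chromosome V from 3803839 to 3894573, had 34.8, 48.9, 32.9 and 30.02 in the 4 g/L libraries, against 103, 182, 122 and 154 in the controls. Its exposed libraries were all far below the controls and it changed by -1.90 ± 0.19 (SE; adjusted p = 1.12e-11 in limma).

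Few of these changes were called at the next lower concentrations, which were set against the same control libraries. At 2 g/L 32 genes were called higher (0.311%) and 18 lower (0.175%), at 1 g/L 16 (0.155%) and 1 (0.00972%), and at 0.5 g/L 2 (0.0194%) and 0 (0%). Of the genes printed here, apy-1, T16G1.6 and R08F11.4 were called at 1 and 2 g/L, and irg-3, pho-11, T16G1.7, acp-6 and lys-4 at 2 g/L. apy-1 averaged 58.9 in the controls, 64.5 at 0.5 g/L, 108 at 1 g/L, 220.0 at 2 g/L and 472 at 4 g/L. T16G1.6 averaged 6.66, 20, 37.1, 113 and 319.6 in the same order of groups. irg-3 averaged 82.5, 95.9, 129, 177 and 278. In all 3 the mean was higher at each of these steps.

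Among the falls pho-11 averaged 667, 612, 567, 469.7 and 312 in that order, and R08F11.4 averaged 140.2, 95.6, 73.2, 46.8 and 36.7. Another 5 genes, called at 4 g/L, were not called at 2 g/L. A missing call at 2 g/L does not show that a gene stayed at its control level there. hrg-7 averaged 87.1 in the controls, 91.6, 102 and 134 at 0.5, 1 and 2 g/L and 368 at 4 g/L, with an adjusted p of 0.353 at 2 g/L. grl-21 averaged 3.69 in the controls, 5.80 at 2 g/L and 114 at 4 g/L. act-5, pept-1 and ifb-2 averaged 1363, 85.7 and 146 at 2 g/L, between their control and 4 g/L means, and none was called there.

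**Figure D5:**
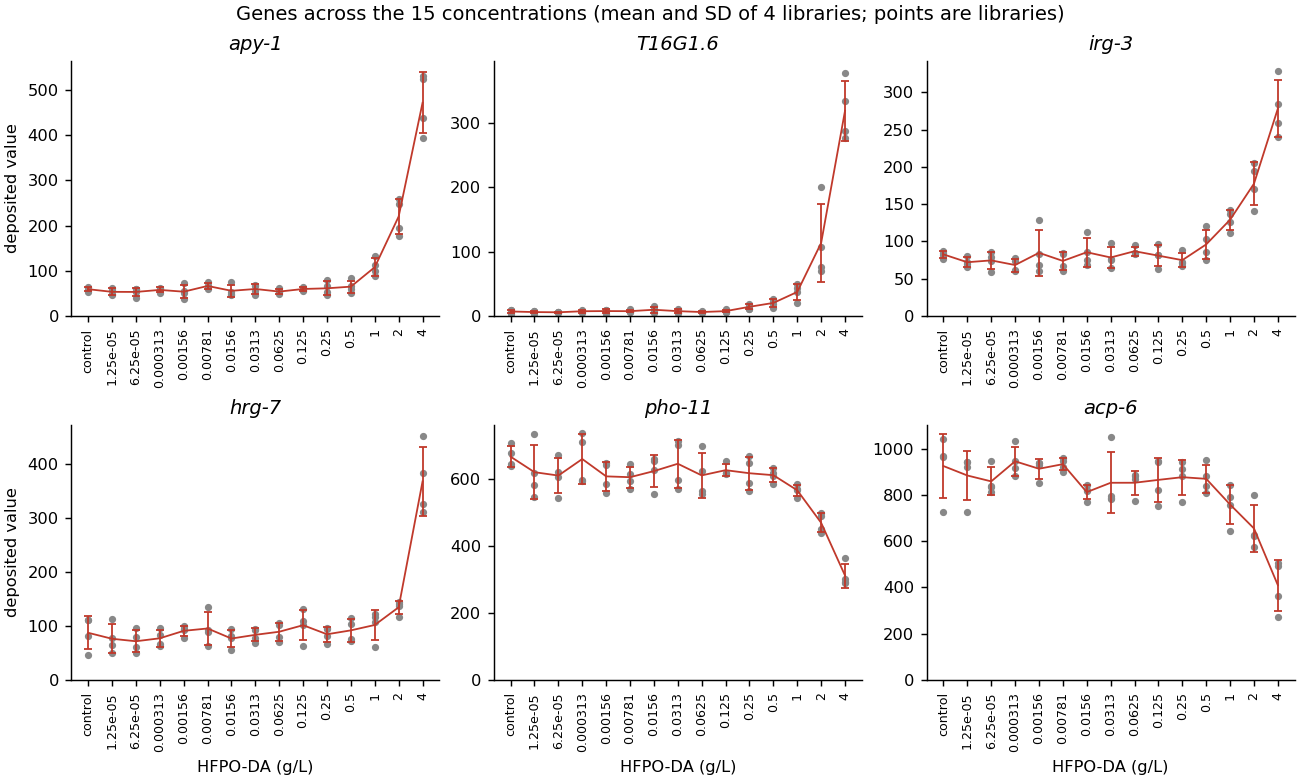
Mean and SD (lines and bars) and the 4 libraries (points) of 6 genes, as deposited value on a linear axis, over the control and 14 concentrations of HFPO-DA in g/L, evenly spaced from low to high. apy-1, T16G1.6 and irg-3 climb over 1, 2 and 4 g/L, hrg-7 stands apart at 4 g/L, and pho-11 and acp-6 are lowest at 4 g/L.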

How the data were processed

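Poly(A) RNA of whole worms was sequenced at shallow depth, per the labels' protocols. The authors deposited 1 table of linear, normalised signal by gene and library; the build WBcel235 is named in the submitters' processing notes, with edgeR 3.36.0, HTSeq 2.0.1, STAR 2.7.10a, Trimmomatic 0.39 and UMI-tools 1.1.2, but how the counts were normalised is not given in the sources used. The deposited signal was found to follow 1 form: reads over a size factor, plus 1, multiplied by a factor, plus 1 again. The factor belongs to 1 gene and 1 replicate number and lies between 0.445 and 3.18, so the signal had already been adjusted between replicate numbers. The main fit did not account for that step. Spread within a group and overlap between groups refer to the adjusted values. On reads over the size factor, without this factor, 1957 genes were called. With it, 100% of 617880 values gave whole reads within 0.0001 reads, with reads of 0 held as 0.5. Voom on these recovered reads called 1781 genes. The pseudocount understates the fold changes of low genes.

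Values were taken as log2(value + 1) for genes that reached 5 in at least 4 libraries, and fitted with limma 3.58.1 (R 4.3.3) as 15 group means over 60 libraries with an intensity trend. Two-sided p-values were adjusted by the Benjamini-Hochberg method. Python 3.11.15, numpy 2.4.6, pandas 2.3.3 and matplotlib 3.10.9 made tables and plots. Recovery and fits were tested on simulated data. Symbols and positions came from RefSeq's WBcel235 annotation, which matched 10294 identifiers. No pair of replicates agreed within sampling noise.

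Named genes are the 15 largest called rises and falls outside the lists set aside (a symbol of letters, a hyphen and a number, mean of at least 20, no overlap), up to 3 called members per list (or the 2 with the highest mean where none was called), and genes in runs of at least 4 called neighbours; values are printed for part of these. The comparison, lists and genes were chosen with earlier results of these data known, and other genes are said to be chosen after their values were seen. The alternatives changed the pseudocount (0.5, 5), the filter (none, 20), the scaling, the trend, the prior, array weights, the libraries fitted, a replicate block, a set term (sets of 12 consecutive sample numbers, on reads over the size factor) and left out each library. The fits on reads over the size factor without the set term, and the runs under other settings, were added after seeing the data.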

Additional observations from a re-analysis of the deposited data

Results flagged for a closer look

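Each group of 4 libraries of the printed genes was checked for a library whose gap to the next, over the group's range, passed Dixon's 95% critical value for 4 samples. Of 308 groups checked 17 passed, and chance flags about 1 in 20. At 4 g/L, replicate 4 stood above the other 3 in fipr-10 (192), ifp-1 (98.0), ifc-1 (147), lam-1 (179), epi-1 (279.7), nid-1 (108), myo-5 (231) and alg-3 (84.2). Replicate 2 stood above the others at 4 g/L in nkb-1 (128), dod-3 (73.3), pho-11 (365) and lin-41 (66.9). Among the controls, replicate 1 stood above the other 3 in fipr-7 (64.1), pept-1 (81.1) and epi-1 (179), replicate 2 stood above them in zipt-1 (83.8), and replicate 2 stood below them in lin-42 (4.69).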

How the results depend on the processing

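The count of called genes, 2932, was 2412 to 3076 under the other pseudocounts, filters, scalings, trend, prior, array weights and the set term. It was 1131 (701 higher and 430 lower) with only the 8 libraries in the fit, 1781 with voom on recovered reads (745 lower), 1379 (876 and 503) on reads over the size factor in those 8 libraries, 1489 (711 and 778) if no overlap was also asked for, and 965 (846 of them higher) with a log2 fold change of at least 1. On reads over the size factor in all 60 libraries 881 rose and 1076 fell (1957), and with quantile normalization 1278 rose and 1661 fell, so falls led in both. Leaving out 1 library gave 1300 to 3345 calls, 641 to 1806 of them higher and 659 to 1547 lower; the count was lowest without 4 g/L replicate 4. Called members of the family and tissue lists, 598 in all, numbered 251 with only the 8 libraries, 287 on reads over the size factor in them, 383 with voom and 278 to 675 without 1 library. Runs of neighbours numbered 25, against 3 with only the 8 libraries and 4 without 4 g/L replicate 4. Of the 138 called genes with printed values, 85 were called under all alternatives that tested them, 39 were lost with only the 8 libraries and 37 without 4 g/L replicate 4; without 1 library 101 to 134 stayed called. None changed direction in the alternatives run. The causes were not tested.

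With the replicate number as a block 1444 genes were called higher and 1316 lower, 2760 in all, and 138 of the printed genes stayed called. The deviations of same-numbered libraries at 4 g/L and control correlated at -0.18, -0.01, -0.01 and -0.24. The deposited signal had been adjusted between replicate numbers, which can take out what same-numbered libraries share. Values adjusted in this way cannot show whether the numbers pair the samples. Depth limited genes with few reads, whose fold changes are understated. The planned search of promoters for motifs was not run.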
